A study of Mus musculus with 2 samples.

Results

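The cholesterol synthesis genes Hmgcs1, Idi1, Fdps, Fdft1, Sqle and Cyp51 and the feedback gene Insig1 were followed through the glial cells of the mouse basolateral amygdala. These 7 genes were given by name, not by a rule on their measured values, but earlier results of these data were known then. All 7 had a column in both single-cell tables, out of 25120 genes over both. Cells make cholesterol from acetyl-CoA through the mevalonate pathway, and the brain makes its own, because plasma lipoproteins hardly cross the blood-brain barrier. When sterols in the endoplasmic reticulum run low, the transcription factor SREBP-2 is cleaved and turns on nearly every enzyme of the pathway together with Insig1. The INSIG1 protein in turn holds the SREBP escort SCAP in the endoplasmic reticulum when sterols are plentiful. In the adult brain, astrocytes make cholesterol that they export on lipoproteins, and oligodendrocytes make it for myelin.

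The treated mice received FGF21, a liver hormone that acts through FGF receptors and the co-receptor beta-klotho (KLB), once daily for 3 days at 1 mg/kg, and the control mice received vehicle. All were adult C57BL/6 mice. Basolateral amygdala of 3 mice was pooled per treatment, dissociated with pronase in the presence of the transcription blocker actinomycin D, and sorted for tdTomato fluorescence and for viability by Hoechst dye. The series concerns cells that express KLB, and the promoter or Cre allele behind tdTomato is not given in the sources used here. Each pool gave 1 library, so treatment, pool and library cannot be told apart. Every interval below is a 95% interval that covers counting error only, and no test of the treatment was possible.

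The 7 genes cover the pathway from its first committed steps to its first sterols. HMGCS1 (chr13:119690379-119708260, plus strand, GRCm38) joins acetyl-CoA and acetoacetyl-CoA to HMG-CoA. IDI1 (chr13:8885501-8892451, plus strand) interconverts the isoprene units isopentenyl and dimethylallyl diphosphate, and FDPS (chr3:89093588-89101959, minus strand) joins them to farnesyl diphosphate. FDFT1 (chr14:63145150-63179578, minus strand) makes squalene, the first step that serves sterols alone. SQLE (chr15:59315077-59331192, plus strand) oxidises squalene, and CYP51 (chr5:4081145-4104746, minus strand) removes a methyl group from lanosterol. Insig1 lies at chr5:28071363-28078662 on the plus strand. Hmgcs1 overlaps Gm48342, Idi1 overlaps Gm48574, Fdft1 overlaps Ctsb and Cyp51 overlaps Akap9, each on the opposite strand. Their reads are uncertain where the counting ignored strand, which is not stated. Fdps overlaps Gm43738 and Gm22935 on its own strand, so its reads can be uncertain also where strand was counted.

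RefSeq promoters of GRCm38.p6 matched 4 of the 7 genes by symbol. The 250 bases before each start are shown because these genes share a regulator in the textbook scheme, and capitals mark 3 motifs searched on both strands. The motifs were a sterol regulatory element (TCACNCCAC), the NF-Y site (CCAAT, or ATTGG on the other strand) and the Sp1 site (GGGCGG, or CCGCCC on the other strand), chosen with these promoters in view. No match of 1 motif overlapped a match of another.
Hmgcs1, chr13:119690101-119690350, plus strand: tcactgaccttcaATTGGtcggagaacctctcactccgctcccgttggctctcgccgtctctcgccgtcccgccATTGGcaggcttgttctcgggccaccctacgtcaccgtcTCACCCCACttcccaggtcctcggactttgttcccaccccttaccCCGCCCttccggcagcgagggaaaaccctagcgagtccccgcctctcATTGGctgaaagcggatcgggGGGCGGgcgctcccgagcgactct
Idi1, chr13:8885356-8885605, plus strand: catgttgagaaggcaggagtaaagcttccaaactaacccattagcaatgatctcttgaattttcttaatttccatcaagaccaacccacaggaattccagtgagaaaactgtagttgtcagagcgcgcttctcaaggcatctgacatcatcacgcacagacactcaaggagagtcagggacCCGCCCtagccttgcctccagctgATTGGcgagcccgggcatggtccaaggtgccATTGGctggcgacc
Cyp51, chr5:4104698-4104947, minus strand: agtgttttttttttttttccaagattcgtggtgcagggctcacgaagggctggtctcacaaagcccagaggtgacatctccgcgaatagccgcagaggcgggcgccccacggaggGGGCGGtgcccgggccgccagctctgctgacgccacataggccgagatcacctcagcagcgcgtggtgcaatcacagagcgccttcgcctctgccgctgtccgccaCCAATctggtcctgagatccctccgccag
Insig1, chr5:28071162-28071411, plus strand: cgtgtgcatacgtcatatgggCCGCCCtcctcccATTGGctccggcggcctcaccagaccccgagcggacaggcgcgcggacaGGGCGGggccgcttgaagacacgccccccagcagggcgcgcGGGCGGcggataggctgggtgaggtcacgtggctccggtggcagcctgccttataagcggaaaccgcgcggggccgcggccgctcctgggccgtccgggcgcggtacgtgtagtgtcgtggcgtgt
The Hmgcs1 promoter held the sterol regulatory element TCACCCCAC, which begins 137 bases before the start, and 3 NF-Y sites. The other 3 promoters held no match to that element, which 1.05% of 32851 mouse promoters of this length contain. The RefSeq starts of Idi1, Cyp51 and Insig1 lie inside the GENCODE genes given above, so the last part of those stretches overlaps the annotated gene. All 4 held at least 1 NF-Y and 1 Sp1 match, against 33.8% and 32.7% of promoters. Idi1 had 2 NF-Y matches, Insig1 had 3 Sp1 matches, and Cyp51 had 1 match of each. A match describes these letters and does not show a bound site.

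The FGF21 library held 14585503 UMIs (unique molecules) in 2455 barcodes and the vehicle library 11130580 UMIs in 2925 barcodes. After filtering, 1935 FGF21 cells with a median of 6838 UMIs and 2337 vehicle cells with a median of 4232 UMIs were clustered without the 7 genes and without related lipid genes. Of the cell indices, 12 occurred in both libraries. Clusters were called "X-like" from marker lists. The 5 glial classes were oligodendrocyte precursor-like (576 FGF21 and 370 vehicle cells), differentiating precursor-like (38 and 38), oligodendrocyte-like (82 and 41), astrocyte-like (192 and 99) and microglia-like (887 and 1417). The differentiating precursor-like cells formed 1 cluster led by Enpp6 and Bmp4, early markers of commitment to the oligodendrocyte lineage, and all 8 markers of their list were detected. Enpp6 reached 1295 CPM (UMIs of the gene per 1000000 UMIs of the class) in FGF21 and 1282 CPM in vehicle cells of that cluster, against 24.4 and 13.9 CPM in oligodendrocyte precursor-like cells. Pdgfra, the precursor marker, stood there at 323 and 293 CPM, against 3103 and 3199 CPM in oligodendrocyte precursor-like cells.

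Markers of other cell types were found in every glial class. From marker lists in 16 pairs with a class that should lack them, the share of a class's RNA that resembled the whole library was 34.4% in FGF21 and 29.2% in vehicle cells (median, with single pairs between 23.6% and 89.0% in FGF21 and between 20.0% and 146% in vehicle). This share is called background below. The 7 genes together made up 406 CPM of all used FGF21 cells and 199.8 CPM of all used vehicle cells. The share of a class value that this background would supply is given beside the values below.

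Astrocyte-like cells had the highest level of the 7 genes together among the glial classes, and microglia-like cells the lowest. In astrocyte-like cells the sum was 1189 CPM (1129–1253) in FGF21 and 904 CPM (814–1002) in vehicle cells. Oligodendrocyte-like cells had 836 CPM (773–902) in FGF21 and 407 CPM (337–488) in vehicle cells. Differentiating precursor-like cells had 450.3 CPM (401–504) in FGF21 and 355 CPM (301–415) in vehicle cells. Oligodendrocyte precursor-like cells had 437 CPM (419–456) in FGF21 and 299 CPM (277–321) in vehicle cells. These last 2 classes were neighbours whose intervals overlapped within each library, and in the vehicle library those of oligodendrocyte-like and differentiating precursor-like cells overlapped too. Microglia-like cells had 144 CPM (134–154) in FGF21 and 91.1 CPM (83.5–99.2) in vehicle cells, of which the background would supply 96.8% and 64.0%.

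**Figure D1:**
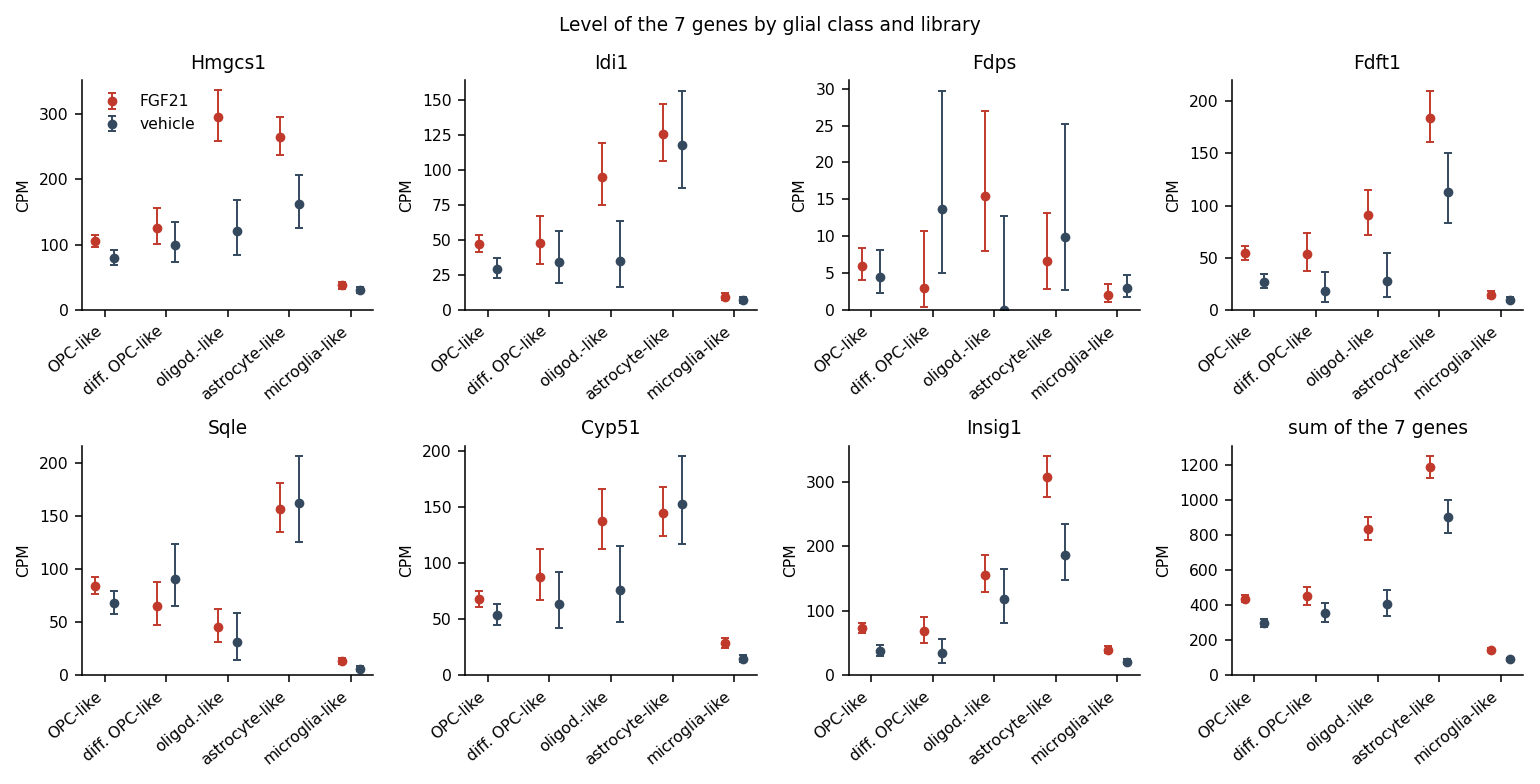
Level of each of the 7 genes and of their sum (UMIs per 1000000 UMIs of the class, CPM) in 5 glial classes, FGF21 library in red and vehicle library in blue-grey. Points are class sums of 1 library, bars are exact Poisson 95% intervals of counting error. Astrocyte-like cells had the highest sum in both libraries (1189 and 904 CPM), and for Hmgcs1 the FGF21 oligodendrocyte-like cells stood at 296 CPM beside 121 CPM in vehicle.

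The astrocyte-like level was carried by every member that could be measured. Relative to oligodendrocyte precursor-like cells, the sum was 2.72 times as high in the FGF21 library (2.54–2.91) and 3.03 times in the vehicle library (2.66–3.44). A gene was counted as measured where both classes together held 50 UMIs or more, and as apart from 1.5-fold on. By that count 6 of 6 measured members were higher in astrocyte-like cells in each library, while 11.1% of all genes were higher and 35.6% lower in the FGF21 library, and 11.8% and 37.6% in the vehicle library. Insig1 had the widest gap, with 307 CPM in FGF21 astrocyte-like cells against 72.7 CPM in FGF21 precursors, a ratio of 4.22 (3.64–4.89). In the vehicle library Insig1 stood at 187 CPM in astrocyte-like cells against 37.7 CPM in precursors, a ratio of 4.96 (3.61–6.79). Fdft1 followed with ratios of 3.41 in the FGF21 and 4.25 in the vehicle library. Sqle had the smallest gap in the FGF21 library, 157 CPM in astrocyte-like cells against 84.1 CPM in precursors, a ratio of 1.86 (1.56–2.22). Fdps was too sparse to rank, with 8 UMIs in FGF21 and 4 UMIs in vehicle astrocyte-like cells.

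Along the oligodendrocyte lineage, the 6 measured members differed by less than 1.5-fold between differentiating and other precursors. Fdps was too sparse, with 2 UMIs in FGF21 and 6 in vehicle differentiating precursor-like cells. The sum in differentiating precursor-like over oligodendrocyte precursor-like cells was 1.03 (0.911–1.16) in the FGF21 library and 1.19 (0.992–1.41) in the vehicle library. Of 6 measured members, 0 were higher and 0 lower by 1.5-fold in either library. Of all genes 10.1% were higher and 25.9% lower in the FGF21 library, and 12% and 25.5% in the vehicle library. The vehicle value rested on 1 differentiating cell that held 55 of the class's 156 UMIs of the 7 genes, 21 of them Sqle. With the cell richest in these UMIs left out of each class and library, the sum was 421 CPM (373–474) in FGF21 and 240.5 CPM (196–292) in vehicle differentiating precursor-like cells. The ratio to other precursors was then 0.971 (0.853–1.10) in the FGF21 and 0.821 (0.66–1.01) in the vehicle library. Vehicle Fdft1, with 5 UMIs left in differentiating precursor-like cells, then stood at 11.9 CPM there and at 26.7 CPM in other precursors.

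Oligodendrocyte-like cells stood above the precursors for most members but below them for Sqle. The sum was 1.91 times that of oligodendrocyte precursor-like cells in the FGF21 library (1.75–2.09) and 1.36 times in the vehicle library (1.11–1.66). Hmgcs1 was 2.80 times as high in FGF21 oligodendrocyte-like cells (2.39–3.27) and 1.53 times in vehicle ones (1.03–2.20). Insig1 was 2.14 times as high in the FGF21 library (1.73–2.63) and 3.11 times in the vehicle library (2.04–4.66). Sqle ran the other way, with 45.0 CPM in FGF21 oligodendrocyte-like cells against 84.1 CPM in FGF21 precursors, a ratio of 0.535 (0.368–0.756). In the vehicle library Sqle had 31.1 CPM in oligodendrocyte-like cells, from 9 UMIs, against 68.0 CPM in precursors, a ratio of 0.457 (0.205–0.888). At 1.5-fold, 5 of 6 measured members were higher and 1 lower in FGF21 oligodendrocyte-like cells, against 9.49% higher and 46.6% lower among all genes. In the vehicle library 2 of 6 were higher and 1 lower, against 11.6% and 44.8% of all genes.

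A cluster led by the mitosis genes Top2a and Mki67, which best matched the list of cycling genes and was given no cell type name, held 10 FGF21 and 3 vehicle cells. Its sum of the 7 genes was 703 CPM (564–866) in FGF21 and 693 CPM (434–1050) in vehicle cells. That was 1.61 times the precursor level in the FGF21 library (1.28–1.99) and 2.32 times in the vehicle library (1.45–3.54). The direction of Sqle there was opposite to that in oligodendrocyte-like cells, with 152 CPM in FGF21 and 252 CPM in vehicle cells, from 19 and 8 UMIs. A single vehicle cell held 87.5% of those 8 Sqle UMIs. The richest vehicle cell held 59.1% of the 22 vehicle UMIs of the 7 genes. With every cell thinned to equal depth, the cluster's sum was 400 CPM in FGF21 and 167 CPM in vehicle cells. Oligodendrocyte precursor-like cells then had 433 and 303 CPM. The thinned values of this small cluster rest on UMIs in 5 of the 10 FGF21 cells and 1 of the 3 vehicle cells. They are too few to decide whether its higher level holds at equal depth.

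Between treatments, the summed level was higher in the FGF21 than in the vehicle library in all 5 glial classes, before background was subtracted. In oligodendrocyte precursor-like cells the ratio was 1.46 (1.35–1.59), from 2225 UMIs in FGF21 and 729 UMIs in vehicle cells. Insig1 had 72.7 CPM in FGF21 and 37.7 CPM in vehicle precursors, a ratio of 1.93 (1.53–2.45). Fdft1 had 54.0 and 26.6 CPM in FGF21 and vehicle precursors, a ratio of 2.03 (1.54–2.70), and Idi1 had 47.0 and 29.1 CPM, a ratio of 1.61 (1.23–2.14). Hmgcs1, Sqle and Cyp51 were also above 1 with intervals that excluded it, at 1.34, 1.24 and 1.26. Fdps had 30 UMIs in FGF21 and 11 in vehicle precursors, and its ratio of 1.31 had an interval of 0.637–2.89. Of the 6 members measured by 50 UMIs over both libraries, 3 were higher by 1.5-fold or more and 0 lower, while 5.54% of 11398 genes were that much higher and 4.97% lower. With background subtracted, Fdft1 had a ratio of 1.76 and Insig1 of 1.60, Idi1 lost its call at 1.40, and Hmgcs1, Sqle and Cyp51 had 1.12, 1.09 and 1.05. The members' median log2 ratio was 0.55 and that of all genes -0.01.

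The precursors of the libraries lay mostly in different clusters. Of the FGF21 precursors 82.6% lay in a cluster led by Ly6h and Inka2, and of the vehicle precursors 95.7% lay in a cluster led by Stk32a and Zbtb16. Within the Stk32a-led cluster, the sum of the 7 genes was 491 CPM (433–554) in 100 FGF21 cells and 298 CPM (276–321) in 354 vehicle cells. Within the Ly6h-led cluster it was 431 CPM (412–451) in 476 FGF21 cells and 313 CPM (222–427) in 16 vehicle cells. The FGF21 value was thus the higher of the pair within both clusters, although their intervals overlapped in the Ly6h-led one. Background would supply 31.9% of the FGF21 and 19.5% of the vehicle precursor UMIs, and with it subtracted the ratio was 1.24.

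The treatment ratio of differentiating precursor-like cells varied with single cells and with background. With 304 UMIs in 38 FGF21 cells and 156 UMIs in 38 vehicle cells it was 1.27 (1.04–1.55), 1.05 with background subtracted, and 1.75 (1.39–2.22) without the single cell richest in these UMIs in each library. Insig1 had 68.1 CPM in FGF21 and 34.1 CPM in vehicle cells, a ratio of 2.00 (1.10–3.85). Fdft1 had 53.3 CPM in FGF21 and 18.2 CPM in vehicle cells, from 36 and 8 UMIs, a ratio of 2.93 (1.34–7.30). Sqle had 65.2 CPM in FGF21 and 90.9 CPM in vehicle cells, a ratio of 0.717 (0.456–1.13), and without those richest cells the ratio was 1.33 (0.75–2.44). Hmgcs1, Idi1 and Cyp51 lay between 1.26 and 1.39, with intervals that included 1. Astrocyte markers were also higher in the FGF21 cells of this class, where the 9 markers, all detected in both libraries, summed to 1659 CPM in FGF21 and 977 CPM in vehicle cells, and Aqp4 stood at 32.6 and 13.6 CPM. Their part in the result was not tested. Of 4 measured members 1 was higher by 1.5-fold and 0 lower, against 7.8% and 7.47% of 4990 genes.

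Oligodendrocyte-like cells had the largest treatment ratio of the summed level among the 5 classes. It was 2.05 (1.68–2.52), from 650 UMIs in 82 FGF21 cells and 118 UMIs in 41 vehicle cells. Background would supply 16.7% of the FGF21 and 14.3% of the vehicle UMIs, and the ratio with it subtracted was 1.99. Hmgcs1 had 296 CPM in FGF21 and 121 CPM in vehicle cells, a ratio of 2.45 (1.71–3.60). Fdft1 had 91.3 and 27.6 CPM in FGF21 and vehicle cells, a ratio of 3.30 (1.59–7.95), and Idi1 had 95.1 and 34.5 CPM, a ratio of 2.76 (1.42–5.98). The vehicle side of both rested on few molecules, 8 UMIs for Fdft1 and 10 for Idi1. Cyp51 had 138 CPM in FGF21 and 76.0 CPM in vehicle cells, a ratio of 1.81 (1.14–3.01). Insig1 had 156 CPM in FGF21 and 117 CPM in vehicle oligodendrocyte-like cells, and its interval included 1 (ratio 1.33, 0.899–2.00). Fdps had 12 UMIs in FGF21 and 0 in vehicle cells, and the exact interval of its ratio began at 1.03. Against a floor of 3 UMIs for the vehicle class, the FGF21 level was 1.49 times as high. Of 5 measured members 4 were higher by 1.5-fold and 0 lower, against 9.31% and 9.38% of 3997 genes.

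Markers of astrocytes, the class richest in the 7 genes, were also higher in FGF21 than in vehicle oligodendrocyte-like cells. The 9 astrocyte markers summed to 1396 CPM in FGF21 cells, with 9 of 9 detected, and to 887 CPM in vehicle cells, with 8 of 9 detected, against 28400 and 32170 CPM in astrocyte-like cells. Aqp4, a defining astrocyte marker, stood at 16.7 CPM in FGF21 and 10.4 CPM in vehicle oligodendrocyte-like cells. The part of astrocyte RNA in the result was not tested, and the ratio after background subtraction was 1.99, as above.

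In astrocyte-like cells 3 members were higher by more than 1.5-fold and 3 lay near 1, a difference between members that was not tested. The sum had a ratio of 1.32 (1.17–1.48), from 1434 UMIs in 192 FGF21 cells and 368 UMIs in 99 vehicle cells, and background would supply 11.7% of the FGF21 and 6.45% of the vehicle UMIs. Hmgcs1 had 265 CPM in FGF21 and 162 CPM in vehicle cells, a ratio of 1.64 (1.25–2.17). Fdft1 had 184 and 113 CPM in FGF21 and vehicle cells, a ratio of 1.63 (1.18–2.29), and Insig1 had 307 and 187 CPM, a ratio of 1.64 (1.28–2.13). Idi1, Sqle and Cyp51 lay near 1. Sqle had 157 CPM in FGF21 and 162 CPM in vehicle cells, a ratio of 0.967 (0.727–1.30), and Cyp51 had 144 and 152 CPM, a ratio of 0.947 (0.705–1.29). Idi1 had 125.2 CPM in FGF21 and 118 CPM in vehicle cells, a ratio of 1.06 (0.763–1.5). The intervals of Sqle, Cyp51 and Idi1 allow both higher and lower levels in FGF21 cells. Among the settings run, the lowest ratio was 1.35 for Hmgcs1, 1.40 for Fdft1 and 1.55 for Insig1. Hmgcs1 and Fdft1 thus did not keep a 1.5-fold ratio under every setting. For Idi1, Sqle and Cyp51 the lowest ratios were 0.99, 0.89 and 0.716. Here 3 of 6 measured members were higher by 1.5-fold and 0 lower, against 10.7% and 8.5% of 6128 genes.

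In microglia-like cells the direction of the summed level turned round once background was subtracted. The ratio was 1.58 (1.42–1.77), from 796 UMIs in 887 FGF21 cells and 531 UMIs in 1417 vehicle cells. The background would supply more Sqle than was found, 151% of the FGF21 and 150.0% of the vehicle UMIs, beside a Sqle ratio of 2.14 (1.42–3.28). Subtracting background left 4.64 CPM of the 7 genes in FGF21 and 32.8 CPM in vehicle cells, a ratio of 0.141. Insig1 had 39.7 CPM in FGF21 and 20.6 CPM in vehicle cells, a ratio of 1.93 (1.54–2.43), and 1.06 after subtraction. By 1.5-fold, 3 of 6 measured members were higher and 0 lower, against 12% and 5.08% of 11366 genes. Of the FGF21 microglia-like cells 97.1% lay in a cluster led by Cebpa and Anxa3, and of the vehicle ones 99.4% in a cluster led by Cysltr1 and Abca9.

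**Figure D2:**
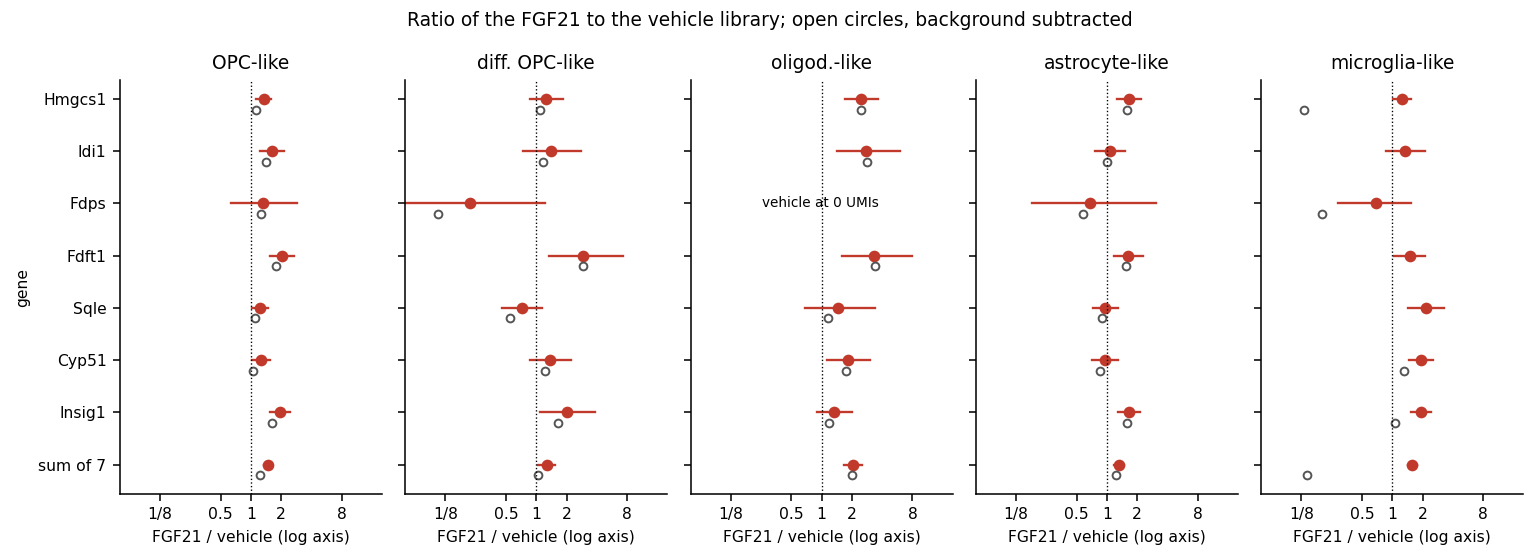
Ratio of the FGF21 to the vehicle library for each gene and for the sum of the 7 genes in 5 glial classes, on a log axis. Filled circles with lines are ratios of CPM with exact 95% intervals of counting error, and open circles are the ratios after background was subtracted. Lines are clipped at the axis limits, and open circles outside them or without a positive value are not drawn. Insig1 lay near 2 in oligodendrocyte precursor-like cells (1.93) and at 1.33 in oligodendrocyte-like cells, and the subtracted sum in microglia-like cells lay at 0.141.

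Before background was subtracted, Hmgcs1 and Insig1 were higher in the FGF21 library in all 5 classes, and both were among the 3 members measured in every class. With background subtracted, Hmgcs1 turned round in microglia-like cells, where its ratio was 0.133. Of all 3412 genes measured in every class, 15.8% were higher in all 5 and 12.2% lower in all 5. Fdft1 was likewise above 1 in each class, between 1.49 in microglia-like and 3.30 in oligodendrocyte-like cells, but background would supply 123% of its UMIs in FGF21 microglia-like cells, so that class gives no direction for Fdft1. Sqle had a ratio above 1.5 in microglia-like cells and in none of the other 4 classes. In microglia-like cells background would supply more Sqle than was found in either library, so that class gives no direction for Sqle. Fdps stayed below 50 UMIs in each class, with 67 UMIs over all used FGF21 cells and 41 over all used vehicle cells.

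The rest of the sterol pathway was described by lists of related genes. Of 16 other cholesterol enzymes, all 16 were measured in oligodendrocyte precursor-like cells, where 4 were higher by 1.5-fold in FGF21 and 0 lower (median log2 ratio 0.41), against 5.54% and 4.97% of all genes. In oligodendrocyte-like cells 3 of 8 measured were higher and 0 lower (median 0.36), against 9.31% and 9.38%. In astrocyte-like cells 4 of 14 were higher and 0 lower (median 0.31), against 10.7% and 8.5%. Differentiating precursor-like cells had 1 of 8 higher and 0 lower (median 0.27), against 7.8% and 7.47%, and microglia-like cells 5 of 16 higher and 0 lower (median 0.45), against 12% and 5.08%. The all-gene medians lay between -0.01 and 0.03. Msmo1, which oxidises the methyl groups of sterol intermediates, had 217 CPM in FGF21 and 121 CPM in vehicle oligodendrocyte-like cells, a ratio of 1.80 (1.24–2.67). In astrocyte-like cells Msmo1 had 849 and 786 CPM in the FGF21 and vehicle libraries, a ratio of 1.08 (0.951–1.23). Sc5d, a late sterol desaturase, had 172 CPM in FGF21 and 125.3 CPM in vehicle astrocyte-like cells, a ratio of 1.37 (1.00–1.9). Ggps1 was counted in this list, although it takes farnesyl diphosphate away from sterols to geranylgeranyl diphosphate. Its ratio was 1.26 (1.06–1.49) in precursors and 0.82 (0.721–0.932) in microglia-like cells.

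The control genes of the pathway had no common direction. Of 3 control genes measured in every class, 1 was higher in all 5, against 15.8% of all genes. This was Srebf2, which encodes SREBP-2, with ratios of 1.23 (1.08–1.39) in oligodendrocyte precursor-like and 1.91 (1.29–2.90) in oligodendrocyte-like cells. In differentiating precursor-like cells its ratio was 1.21 (0.827–1.80), and 0.962 with background subtracted. Its levels were 204 CPM in FGF21 and 107 CPM in vehicle oligodendrocyte-like cells, and 275 and 214 CPM in astrocyte-like cells. Scap, the sterol-sensing escort, had ratios of 1.08 (0.918–1.26) in oligodendrocyte precursor-like and 0.568 (0.348–0.924) in differentiating precursor-like cells. Insig2, the Insig1 paralog, had 62.5 CPM in FGF21 and 63.9 CPM in vehicle oligodendrocyte precursor-like cells, a ratio of 0.978 (0.805–1.19). Its ratio was 0.493 (0.291–0.828) in differentiating precursor-like and 0.801 (0.696–0.92) in microglia-like cells. Mbtps1, the site-1 protease that cuts SREBPs, had a ratio of 0.807 (0.671–0.973) in oligodendrocyte precursor-like cells. At 1.5-fold, 0 of 6 control genes were higher and 0 lower in oligodendrocyte precursor-like cells, against 5.54% and 4.97% of all genes. In oligodendrocyte-like cells 1 of 4 was higher and 1 lower, against 9.31% and 9.38%. Differentiating precursor-like cells had 0 of 5 higher and 2 lower, against 7.8% and 7.47%. Astrocyte-like cells had 1 of 5 higher and 0 lower, against 10.7% and 8.5%, and microglia-like cells had 1 of 6 higher and 0 lower, against 12% and 5.08%.

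Among uptake and trafficking genes, Stard4, a cytosolic sterol carrier, had 26.9 CPM in FGF21 and 11.9 CPM in vehicle precursors, a ratio of 2.27 (1.51–3.51). Npc1, the lysosomal cholesterol exporter, had ratios from 1.05 (0.865–1.27) in oligodendrocyte-like to 1.61 (1.29–2.04) in astrocyte-like cells, and with background subtracted the oligodendrocyte-like ratio was 0.952. Its partner Npc2 was below 1 in every class, from 0.748 to 0.959, also with background subtracted. At 1.5-fold, 2 of 4 were higher in oligodendrocyte precursor-like cells (5.54% of all genes), 2 of 4 in astrocyte-like cells (10.7%), 1 of 4 in microglia-like cells (12%), and 0 of 2 in differentiating precursor-like (7.8%) and in oligodendrocyte-like cells (9.31%), with 0 lower in any.

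Of the fatty acid genes that SREBPs also control, 0 of 10 were 1.5-fold apart in either direction in oligodendrocyte precursor-like cells (median log2 ratio 0.15), where 5.54% of all genes were higher and 4.97% lower. In differentiating precursor-like cells 1 of 6 was higher and 0 lower, against 7.8% and 7.47% of all genes, and in oligodendrocyte-like cells 2 of 7 were higher and 1 lower, against 9.31% and 9.38%. In astrocyte-like cells 1 of 10 was higher and 0 lower, against 10.7% and 8.5%. In microglia-like cells 6 of 9 were higher and 0 lower, against 12% and 5.08%, but background would supply at least 65.6% of the UMIs of each of those 6 in either library. With background subtracted, Fasn (2.02) and Scd1 (1.87) kept a 1.5-fold ratio and the other 4 did not. Scd2, the main stearoyl-CoA desaturase of the brain, had 5705 CPM in FGF21 and 5220 CPM in vehicle oligodendrocyte-like cells, a ratio of 1.09 (1.03–1.16). Acly, which supplies acetyl-CoA, had a ratio of 1.77 (1.08–3.03) in the same cells and 1.02 (0.88–1.18) in oligodendrocyte precursor-like cells. Elovl6, a fatty acid elongase, had a ratio of 1.23 (1.07–1.41) in oligodendrocyte precursor-like cells, and Fads1, a desaturase, had 0.982 (0.873–1.11). Background would supply 104% of the FGF21 and 85.1% of the vehicle Scd2 UMIs in microglia-like cells, beside a Scd2 ratio of 1.71 (1.60–1.82).

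Genes of sterol efflux, which the LXR receptors turn on when sterols are plentiful, had no common direction. Abca1, the cholesterol exporter, was below 1 in all 5 classes, with 323 CPM in FGF21 and 449 CPM in vehicle microglia-like cells, a ratio of 0.721 (0.678–0.766). Abcg1, a related exporter, had 227 CPM in FGF21 and 161 CPM in vehicle oligodendrocyte precursor-like cells, a ratio of 1.41 (1.26–1.58). Its ratio was above 1 in the other 4 classes too, but with background subtracted it was 0.657 in differentiating precursor-like cells, and in astrocyte-like cells background would supply more Abcg1 than was found. Apoe, the main brain apolipoprotein, had 4249 CPM in FGF21 and 4854 CPM in vehicle astrocyte-like cells, a ratio of 0.875 (0.831–0.922). In microglia-like cells Apoe had 959.6 and 669.9 CPM in FGF21 and vehicle cells, a ratio of 1.43 (1.37–1.49), and in differentiating precursor-like cells the ratio was 1.25 (1.09–1.45), 1.00 with background subtracted. Mylip, a ubiquitin ligase that LXR turns on, had 372 CPM in FGF21 and 470.1 CPM in vehicle microglia-like cells, a ratio of 0.792 (0.748–0.839). In the other 4 classes background would supply more Mylip than was found. Of 6 measured genes of this list, 0 were higher and 1 lower in oligodendrocyte precursor-like cells, against 5.54% and 4.97% of all genes. In astrocyte-like cells 2 were higher and 1 lower, against 10.7% and 8.5%, and in microglia-like cells 0 either way, against 12% and 5.08%. Of 4 measured, 0 were higher and 1 lower in differentiating precursor-like cells, against 7.8% and 7.47%, and 1 higher and 1 lower in oligodendrocyte-like cells, against 9.31% and 9.38%. The lower call in precursors and in astrocyte-like cells was Mylip and 1 of the higher calls in astrocyte-like cells was Abcg1, all with background above the UMIs found in both libraries together. Among sterol hydroxylases, Cyp46a1, which turns cholesterol into the exported 24-hydroxycholesterol, had 129 CPM in FGF21 and 83.6 CPM in vehicle astrocyte-like cells, a ratio of 1.55 (1.06–2.32). Cyp7b1 had 101 CPM in FGF21 and 142 CPM in vehicle astrocyte-like cells, a ratio of 0.71 (0.515–0.988), and Cyp27a1 had 36.2 and 42.5 CPM in FGF21 and vehicle microglia-like cells, a ratio of 0.851 (0.703–1.03). Ch25h had 5 UMIs over the 5 classes.

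**Figure D3:**
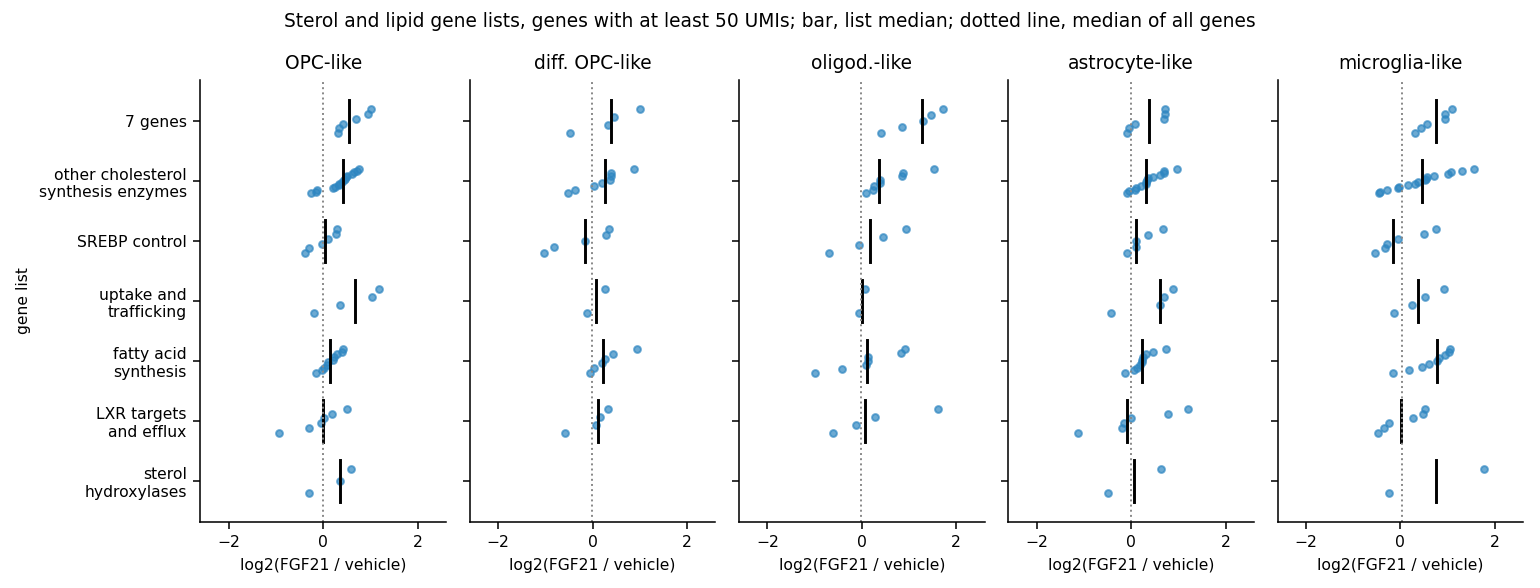
Log2 ratio of the FGF21 to the vehicle library for each gene with at least 50 UMIs, by gene list and glial class. Each point is a gene, the black bar is the list's median and the dotted line the median of all genes. The medians of the 7 genes lay at 0.55 in oligodendrocyte precursor-like and 1.27 in oligodendrocyte-like cells, and that of the LXR list at -0.01 in oligodendrocyte precursor-like cells.

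Single cells held few molecules of the 7 genes, so each cell was thinned to 2000 UMIs before cells were compared. Thinning left out cells with fewer UMIs, among them 4 FGF21 and 4 vehicle oligodendrocyte precursor-like, 0 and 1 differentiating precursor-like, 2 and 3 oligodendrocyte-like, 28 and 22 astrocyte-like, and 22 and 71 microglia-like cells. At that depth 84.1% of FGF21 astrocyte-like cells (77.6–89.4) and 76.6% of vehicle ones (65.6–85.5) held at least 1 UMI of the 7 genes. In oligodendrocyte-like cells the shares were 72.5% in FGF21 (61.4–81.9) and 36.8% in vehicle (21.8–54.0). In oligodendrocyte precursor-like cells they were 56.1% in FGF21 (51.9–60.2) and 44.0% in vehicle (38.8–49.2), and in differentiating precursor-like cells 60.5% (43.4–76.0) and 45.9% (29.5–63.1). Microglia-like cells had 26.2% in FGF21 and 16.2% in vehicle. Erythroid-like cells, set beside them to show the share that free RNA can give, had 27.3% (3 of 11) in FGF21 and 13.0% (3 of 23) in vehicle, with wide intervals of 6.02–61.0 and 2.78–33.6. The FGF21 microglia-like share was not above that of FGF21 erythroid-like cells, so it is not read as expression. Before thinning the shares were 91.7% and 79.8% in FGF21 and vehicle astrocyte-like, 96.3% and 70.7% in oligodendrocyte-like, 92.7% and 79.2% in oligodendrocyte precursor-like, 97.4% and 84.2% in differentiating precursor-like, 55.6% and 29.5% in microglia-like and 25.0% and 15.2% in erythroid-like cells.

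At least 3 UMIs of the 7 genes per 2000 were found in 39.6% of FGF21 and 22.1% of vehicle astrocyte-like cells. The shares were 25.0% in FGF21 and 5.26% in vehicle oligodendrocyte-like cells, and 7.52% and 3.28% in oligodendrocyte precursor-like cells. No erythroid-like cell reached 3, and 0.462% of FGF21 and 0.149% of vehicle microglia-like cells did. The highest single cells were an FGF21 oligodendrocyte-like cell with 72 UMIs of the 7 genes among 32256 UMIs and a vehicle differentiating precursor-like cell with 55 among 20074.

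**Figure D4:**
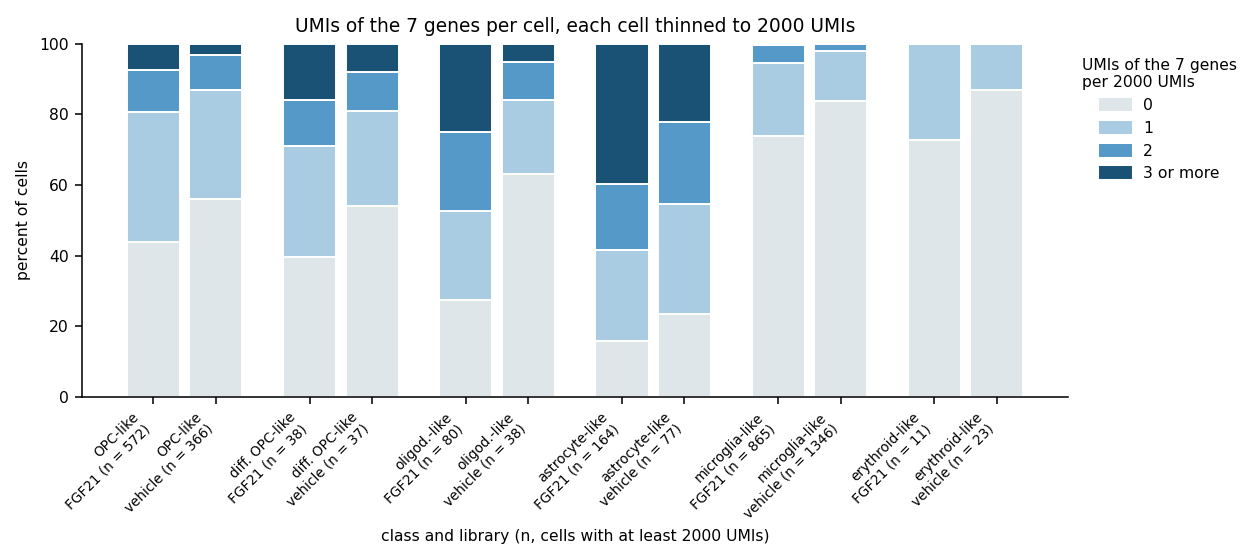
Percent of cells with 0, 1, 2 or at least 3 UMIs of the 7 genes after each cell was thinned to 2000 UMIs, for 5 glial classes and erythroid-like cells, FGF21 library left of vehicle library in each pair. The darkest segment, at least 3 UMIs, covers 39.6% of FGF21 and 22.1% of vehicle astrocyte-like cells.

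Over the 10 points of 5 classes and 2 libraries, the members' levels on the log2(CPM + 5) scale ran closely together, apart from Fdps. Pearson's r was highest between Idi1 and Cyp51 (0.98) and lowest between Fdps and Insig1 (0.26), and Sqle and Insig1 had 0.63. These points share their libraries, depths and background, and the values are descriptions. Among 10712 other genes with at least 200 UMIs, the 8 whose pattern was most like the members' mean pattern were Gpd2, Amy1, Aldh6a1, Megf10, Sec14l2, Mfn1, Hdac7 and Tecr, with r between 0.93 and 0.98. Gpd2, the mitochondrial glycerol-3-phosphate dehydrogenase, was first, with 186 CPM in FGF21 and 165 CPM in vehicle astrocyte-like cells and 82.3 and 41.4 CPM in oligodendrocyte-like cells. It had 54.2 and 37.7 CPM in FGF21 and vehicle oligodendrocyte precursor-like cells, 51.8 and 40.9 CPM in differentiating precursor-like cells, and 19.2 and 9.44 CPM in microglia-like cells. Of the pathway lists, Fasn, Dhcr7 and Srebf2 had r of 0.96, 0.96 and 0.95 with the members' mean pattern. Not every list gene followed it, and the lowest value was -0.84 for Mylip. The cholesterol enzymes Ebp and Lbr had r of -0.61 and -0.31, and the branch enzyme Ggps1 of the same list had -0.44. The control genes Mbtps2, Mbtps1 and Insig2 had r of -0.72, -0.65 and -0.64.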

How the data were processed

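The values used were counts of unique molecules (UMIs) per cell and gene after RSEC error correction, as the authors deposited them. Per the file headers, they came from the BD WTA Rhapsody Analysis Pipeline, version 1.9.1. The build was GRCm38, per the submitters' processing notes. The sources used here give no annotation, cell calling or strand setting. Of 25120 genes 21121 had a column in both tables, and a missing column was read as 0.

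Cells with at least 500 UMIs, 300 genes and at most 25% mitochondrial UMIs were kept (1951 FGF21 and 2354 vehicle cells). Scrublet in scanpy 1.11.5 marked 16 and 17 doublets (0.767%), which were removed. Cells were clustered without integration (2000 variable genes, 30 components, 15 neighbours, Leiden resolution 1.0), leaving out the 7 genes and the 48 genes of 6 related lists. A cluster took the name of the marker list whose mean z-score led by 0.5 with at least 3 markers found in 10% of its cells, a rule set after the clusters were seen. A cluster led by the cycling list was left without a cell type name. UMIs were summed per class and library. The 95% intervals were exact Poisson for levels, exact conditional-binomial for ratios and Clopper-Pearson for shares. To take log2 ratios, 0.5 UMIs were added. With 1 library per treatment, no p-value was given. Genes were called apart at 1.5-fold with at least 50 UMIs over the groups compared.

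The members, lists and tests were chosen with earlier results of these data known. Genes named by rule were the 7 members, the 4 genes of each list with the most UMIs and the 8 genes of most similar pattern. The list genes Fasn, Scd1, Dhcr7, Ebp, Lbr and Mbtps2 were named outside these rules. A few genes that these rules name are not reported here. Promoters came from RefSeq and positions from GENCODE vM21. The ratio step was tested on simulated counts. The alternatives tried were other cell filters, clusterings, scalings and UMI minimums, background subtraction, thinning and leaving out 1 cell per class.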

Additional observations from a re-analysis of the deposited data

Results flagged for a closer look

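A few members had treatment ratios on opposite sides of 1 in different glial classes, and these differences between classes were not tested. Sqle was lower in the FGF21 than in the vehicle library in differentiating precursor-like cells (ratio 0.717) and slightly lower in astrocyte-like cells (0.967), and higher in the other 3 classes. Among these 3, microglia-like cells give no direction for Sqle, because background would supply more of it than was found. The differentiating precursor-like value rested on 1 vehicle cell with 21 of the class's 40 Sqle UMIs, and without the richest cell of each library it was 1.33. Cyp51 was slightly lower in FGF21 astrocyte-like cells (0.947) and higher in the other 4 classes. Fdps was lower in FGF21 differentiating precursor-like (0.217, from 2 FGF21 and 6 vehicle UMIs), astrocyte-like (0.675, from 8 and 4 UMIs) and microglia-like cells (0.683, from 11 and 17 UMIs), and higher in oligodendrocyte precursor-like cells. The intervals of these ratios below 1 all included 1.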

How the results depend on the processing

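No paired analysis was possible because each treatment had 1 library. The ratio of the summed level kept its direction in oligodendrocyte precursor-like (1.24 to 1.65), differentiating precursor-like (1.05 to 1.75), oligodendrocyte-like (1.99 to 2.74) and astrocyte-like cells (1.17 to 1.41) under every setting run. In microglia-like cells it reversed from 1.58 to 0.141 when background was subtracted, so that class gives no direction. Values that left the counting interval were the precursor ratio with background subtracted (1.24) and in the Stk32a-led cluster alone (1.65), the oligodendrocyte-like ratio in thinned cells (2.74), the astrocyte-like ratio as a mean over cells (1.17), and the ratio of differentiating to other precursors in thinned FGF21 cells (1.31). Without the cell richest in the 7 genes in each class and library, the differentiating precursor-like ratio was 1.75 and vehicle differentiating precursors stood at 0.821 of other precursors. Thinning of the sums, single precursor clusters and leaving out the richest cell were chosen after seeing the data. The causes of these shifts were not tested. Of single-member values 331 stayed within their interval and 6 left it. Shares of cells with a UMI after thinning were 56.1% and 44.0% in FGF21 and vehicle oligodendrocyte precursor-like, 60.5% and 45.9% in differentiating precursor-like, 72.5% and 36.8% in oligodendrocyte-like, 26.2% and 16.2% in microglia-like, and 84.1% in FGF21 astrocyte-like cells. The number of genes 1.5-fold apart grows as the UMI minimum is lowered: with at least 20 UMIs, 960 were lower in precursors, 999 higher and 1053 lower in differentiating precursors, 1089 and 1072 in oligodendrocyte-like, 1371 and 1206 in astrocyte-like cells and 942 lower in microglia-like cells. With at least 1 UMI in each library they were 1376 higher and 2754 lower, 1929 and 2895, 1843 and 2923, 1870 and 3004, and 2969 and 2317 in the same order of classes. Few UMIs limit Fdps in every class and single members in the 38 vehicle differentiating precursors. Why Fdps had so few was not tested.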
